A study of Homo sapiens with 12 samples.

Results

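The 6 genes of the retinoic acid receptors (RARA, RARB and RARG) and the retinoid X receptors (RXRA, RXRB and RXRG) were followed across 4 H3K4me2 peak lists from U-937 cells. They are 6 of the 19970 protein-coding genes of the annotation. Each gene was taken with its whole GENCODE gene body and 50 kb on either side of its canonical start site, and every peak in that interval was counted. Overlapping peaks of the 4 lists formed 63 merged regions in the 6 intervals, out of 84577 merged regions in all. The intervals held 53 DMSO, 49 ATRA, 56 Corin and 67 ATRA+Corin peaks.

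U-937 is an established human myeloid cell line, given in the labels as acute myeloid leukaemia cells. The cells were treated for 24 h with the vehicle DMSO, with all-trans retinoic acid (ATRA) at 0.1 µM, with Corin at 0.1 µM, or with both drugs at 0.1 µM each. ATRA is the natural ligand of the retinoic acid receptors. Corin is a small molecule with 2 activities joined in it, against LSD1 and against the deacetylases that sit with LSD1 in the CoREST complex. LSD1 is a demethylase that removes methyl groups from H3K4me2, a histone mark of promoters and enhancers. Every treatment had 2 H3K4me2 libraries and 1 input library of unenriched chromatin, and the peaks were deposited as 1 list per treatment. Each difference is therefore between 2 lists, its spread between replicates is unknown, and it carries no p-value. A longer peak can come from more cells that carry the mark or from more mark per cell, which these data cannot tell apart.

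Retinoic acid receptors bind DNA as pairs with a retinoid X receptor, on direct repeats of a short half-site. A spacing of 5 bases (DR5) or 2 bases (DR2) is typical of this pair, and a spacing of 1 base (DR1) of pairs of retinoid X receptors. Without ligand the pair recruits co-repressors with histone deacetylases, and with ligand it recruits co-activators. RARA is the main retinoic acid receptor of myeloid cells and is fused to PML in acute promyelocytic leukaemia. RARB is a textbook target of retinoic acid, through a response element in its own promoter. Retinoid X receptors also pair with the vitamin D, thyroid hormone, PPAR and liver X receptors.

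The sequences that the results turn on are given first, all on GRCh38, 5′ to 3′. The first set holds direct repeats of the half-sites AGGTCA or AGTTCA, or GGGTCA, or GGTTCA, searched on both strands, with the half-sites in capitals. It shows the DR5 at the RARB start site (chr3:25428204-25428232, plus strand, in an annotated exon of RARB), then a DR5 over an exon of RARA-AS1 inside RARA (chr17:40341647-40341675, plus strand) and a DR5 in an intron of RXRB (chr6:33195465-33195493, plus strand), which lay under no peak in any list.
RARB DR5: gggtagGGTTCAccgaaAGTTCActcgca
RARA DR5: caggcgAGTTCAgcgagAGTTCAgccgca
RXRB DR5: acctgcAGGTCActcaaAGGTCAcagctc

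The second set shows the 150 bases just before 4 start sites that differ in how they are marked, with each CG in capitals. RARA-204 (chr17:40318131-40318280, plus strand) and RARG-204 (chr12:53220414-53220563, minus strand) are internal start sites under the strongest peaks inside their genes. RXRA-202 (chr9:134326305-134326454, plus strand) is the canonical start site of RXRA, which lay between 2 peaks in every list. RXRG-204 (chr1:165445356-165445505, minus strand) is the outermost annotated start of the RXRG promoter, which had no peak.
RARA-204: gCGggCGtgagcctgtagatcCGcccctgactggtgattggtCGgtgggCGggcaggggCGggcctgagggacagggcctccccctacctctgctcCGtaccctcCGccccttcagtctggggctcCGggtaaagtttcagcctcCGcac
RARG-204: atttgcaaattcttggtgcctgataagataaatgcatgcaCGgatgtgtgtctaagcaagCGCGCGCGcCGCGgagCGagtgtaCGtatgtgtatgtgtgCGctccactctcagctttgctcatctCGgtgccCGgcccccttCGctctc
RXRA-202: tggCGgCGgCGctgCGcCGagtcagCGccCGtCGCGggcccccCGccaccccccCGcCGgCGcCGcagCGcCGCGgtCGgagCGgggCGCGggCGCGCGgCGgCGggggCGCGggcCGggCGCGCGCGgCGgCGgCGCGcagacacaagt
RXRG-204: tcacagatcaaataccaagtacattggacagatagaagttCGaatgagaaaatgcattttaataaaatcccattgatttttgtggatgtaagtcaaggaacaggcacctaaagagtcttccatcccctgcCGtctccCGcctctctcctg

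These stretches held 10 CG dinucleotides at RARA-204, 13 at RARG-204, 37 at RXRA-202 and 3 at RXRG-204. The stretch at RARA-204 also overlaps an exon of a long noncoding RNA.

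The lists held 65172 (DMSO), 66385 (ATRA), 73997 (Corin) and 83969 (ATRA+Corin) peaks, with median widths between 741 and 872 bp. The number of fragments at each summit could be recovered from the authors' values, with list medians of 40 to 47 fragments. The background relative to DMSO lay between 1 and 1.20 and was highest in the ATRA+Corin list. Fragment counts printed below are not scaled to this background unless stated. The part of depth in the results was not tested. Of 12 myeloid marker genes, 11 had a peak within 1 kb of their start site in each list. The same held for 1 of 4 T cell (CD2), 1 of 4 erythroid (KLF1) and 0 of 4 epithelial markers in each list. CD3E, GATA1 and EPCAM, defining genes of the other types, had no such peak, and neither did the myeloid gene MPO.

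The receptor genes fell into 3 kinds by how they were marked. RARA, RARG, RXRA and RXRB had broad H3K4me2 across their intervals in every list. RARB carried 1 region at its canonical start in a very large gene, and RXRG carried no peak near its start. The covered sequence, meaning the bases of an interval that lie under peaks, was 26.2, 28.2, 33.2 and 39.0 kb at RARA in the DMSO, ATRA, Corin and ATRA+Corin lists. It was 33.0, 29.8, 34.5 and 36.2 kb at RXRA and 19.8, 21.8, 23.8 and 29.1 kb at RARG, in the same order. At RXRB it was 12.1, 12.3, 14.6 and 16.3 kb. The RARG and RXRB intervals each hold 4 other protein-coding start sites and the RARA interval 1. Part of the covered sequence there thus lies at other genes. Within 5 kb of the RXRB start, 4250 bp were covered in the DMSO list. The last 2 genes had much less, 2.17, 2.42, 4.01 and 4.46 kb at RXRG and 0.98, 3.36, 1.22 and 5.06 kb at RARB.

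As deposited, the ATRA+Corin list covered the most sequence at each of the 6 genes. At RXRG the Corin list covered more under both alternatives tried: 4.01 kb compared with 3.28 kb at a −log10 q of at least 5, and compared with 3.63 kb when the lists were cut to equal length. The share of the interval that was covered placed RARA between percentile 97.7 and 99.2 of all protein-coding genes across the 4 lists. RARB lay between percentiles 11.9 and 14.2, in an interval of 910 kb. Over the 6 genes together, covered sequence relative to DMSO was 1.04 in the ATRA, 1.18 in the Corin and 1.38 in the ATRA+Corin list. The median over 17470 genes was 1.09, 1.23 and 1.36, so the receptors as a group lay close to the genome as a whole.

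**Figure D1:**
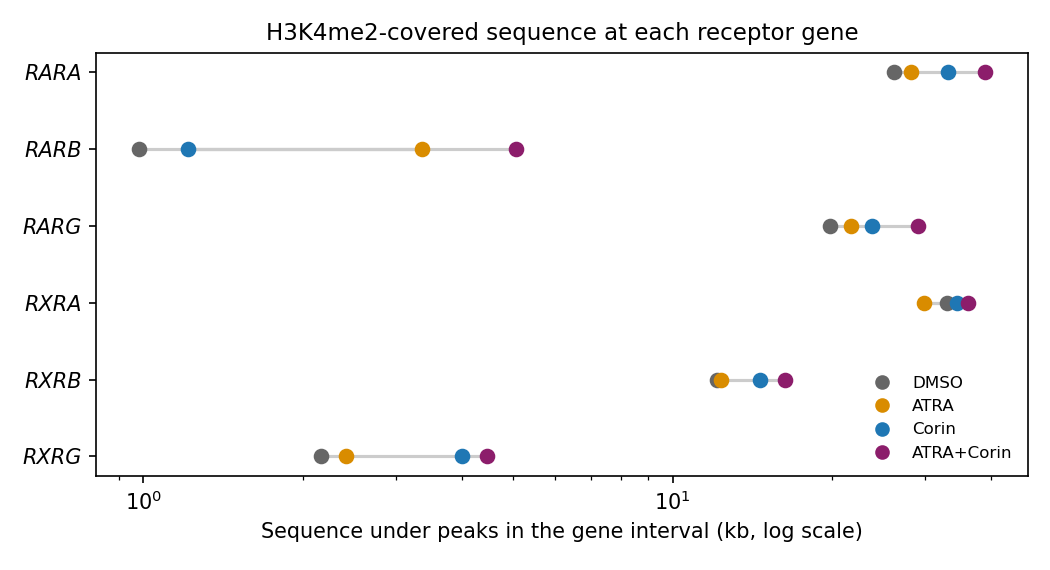
H3K4me2-covered sequence in kb (log axis) in each receptor gene's interval, with 1 point per peak list. RARA and RXRA reach 39.0 and 36.2 kb in the ATRA+Corin list, whereas the RARB points run from 0.98 kb in DMSO and 1.22 kb in Corin to 3.36 kb in ATRA and 5.06 kb in ATRA+Corin.

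RARB stood apart from the other 5 receptors in its ratios to DMSO. Its covered sequence was 3.43 times that of DMSO in the ATRA list (percentile 99.6 of all genes) and 5.16 times in the ATRA+Corin list (percentile 99.4). In the Corin list the ratio was 1.24 (percentile 52.8). RARB started from under 1 kb, where a ratio moves easily. Its ATRA coverage of 3.36 kb includes a 451 bp peak with −log10 q of only 0.842. At a −log10 q of at least 5, and in lists cut to equal length, 2.91 kb were covered in ATRA. The DMSO list had 0.98 kb at both settings. The percentiles and the counts of genes here use the lists as deposited. Of the 1038 genes whose DMSO coverage lay within 50% of that of RARB, 18 (1.73%) had an ATRA ratio at least as high, 597 a Corin ratio at least as high, and 35 (3.37%) an ATRA+Corin ratio at least as high. At RXRA the ATRA ratio was 0.905 (percentile 6.97), the lowest ratio of any receptor in any list. At RXRG the ratio was 1.85 in the Corin list (percentile 94.2) and 2.05 in the ATRA+Corin list (percentile 90.2), again from a small base.

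The canonical start site itself lay under a peak at 4 of the 6 receptor genes in the DMSO list, against 47.3% of all protein-coding genes. The count was 3 in the ATRA list (48.1% of all genes), 3 in the Corin list (38% of all genes) and 2 in the ATRA+Corin list (38% of all genes). Counts over 6 genes are coarse, and no test was made of them. A peak lay within 1 kb of the start at 5 of the 6 in every list, against 61.3%, 61.5%, 61.5% and 62.3% of all genes. The start site was thus often left uncovered by a gap between neighbouring peaks, and the genes differed in how. Among 29 start site groups (canonical and alternative starts, joined when within 500 bp), the 6 canonical ones were joined by 8 alternative ones with GENCODE basic transcripts, of which 2 were covered in each list. Those 2 were the internal start sites of RARA and RARG. Of the other 15 alternative groups, 3 to 5 were covered.

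**Figure D2:**
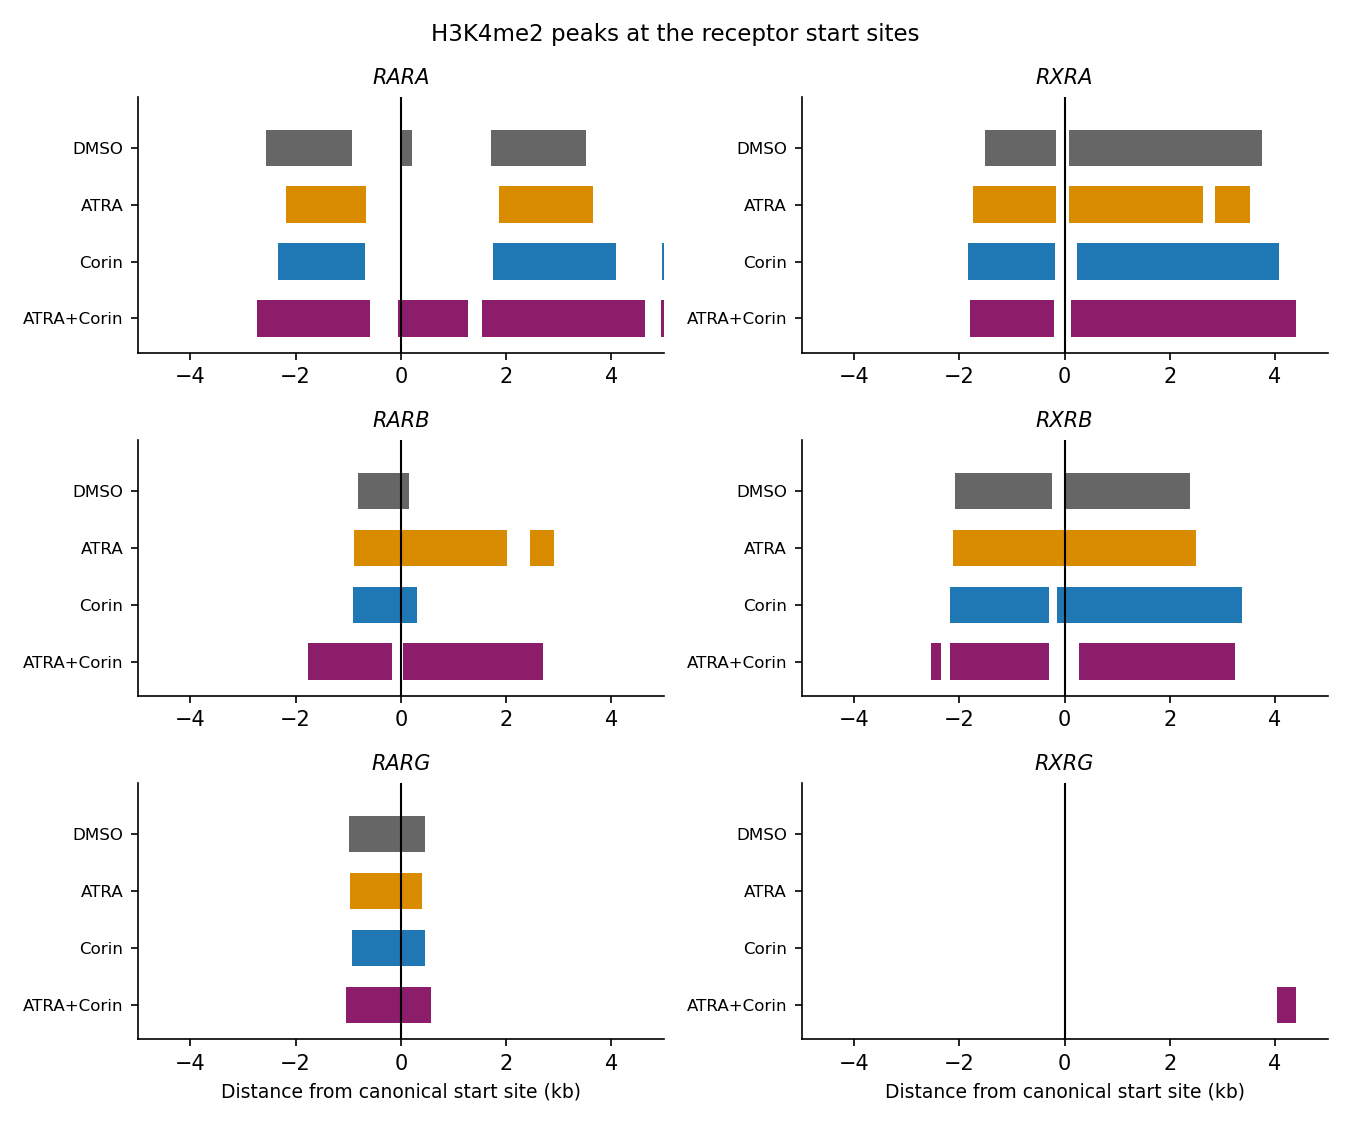
Peaks (bars) from 5 kb before to 5 kb after the canonical start site of each receptor gene, with 1 row per peak list and the start site as a vertical line. RXRA shows a gap over the start in every list, RARB and RXRB show one in the ATRA+Corin list, RARG is covered in all 4 lists, and RXRG has only 1 peak, at +4038 bp in the ATRA+Corin list.

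RARA (ENSG00000131759.18, chr17:40309180-40357643, plus strand) encodes the receptor that mediates most retinoic acid signalling in myeloid cells. Its strongest peak in each list spanned not the canonical start but the internal start site RARA-204 at +9101 bp. The peak over that start was 12000 bp wide in the DMSO list, 12189 bp in ATRA, 17638 bp in Corin and 14918 bp in ATRA+Corin. By width this peak ranked 13 of 65172 in the DMSO list, 24 of 66385 in ATRA, 3 of 73997 in Corin and 35 of 83969 in ATRA+Corin. Ranks in lists of different length show no change, but each places this peak among the broadest in its list. Its summit held 166 fragments in the DMSO list (95% Poisson interval 142 to 193, which covers counting error only), 234 in ATRA, 187 in Corin and 234 in ATRA+Corin. The −log10 q and the fold enrichment over input printed here and for every other peak are the authors' own values.

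The edges of this domain differed between lists. The peak began at −1712 bp from RARA-204 in the DMSO list, at −1763 bp in ATRA and at −2979 bp in Corin. In the ATRA+Corin list it began at −22 bp, with a separate 2845 bp peak before it that ended at −154 bp, so that 22 of the 150 printed bases before RARA-204 were covered there and all 150 in the other lists. Downstream the peak ended 10287 and 10425 bp after RARA-204 in the DMSO and ATRA lists and 14658 and 14895 bp after it in the Corin and ATRA+Corin lists. Much of that stretch was also covered in the DMSO and ATRA lists, by separate peaks of 2491 and 2487 bp. These began 10807 and 10782 bp after RARA-204, with −log10 q of 68.4 and 133.2. Upstream, the DMSO and ATRA lists also had a separate peak, which ended at −1978 and −1962 bp. The merged region was 20702 bp long, the longest among the receptor genes.

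The canonical start of RARA was weakly marked by comparison. A 227 bp peak from −10 to +216 bp, with a deposited −log10 q of 4.03, covered it in the DMSO list. A 1334 bp peak from −61 to +1272 bp, with −log10 q 3.10, covered it in the ATRA+Corin list. In the ATRA and Corin lists no peak covered it, in gaps of 2536 and 2430 bp between stronger peaks on either side. The upstream flanking region, from −2734 to −593 bp, was present in all lists with −log10 q of 31.8, 46.0, 32.2 and 38.4. Only in the ATRA+Corin list did the covered sequence within 5 kb of this start exceed that of DMSO by more than 1 kb, by 2960 bp, compared with a median difference of 672 bp among 12245 genes with a DMSO peak within 1 kb.

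Further regions of RARA lay inside the gene. The region at +4952 bp was present in the DMSO list (−log10 q 4.03), the Corin list (14.0) and the ATRA+Corin list (16.5), and the ATRA list lacked it. The region at +42.1 kb, within 1 kb of the start of RARA-205, which is not a GENCODE basic transcript, was present in every list, with −log10 q of 7.52, 23.1, 16.7 and 37.2. The 2 later basic start sites of RARA, at +32208 and +33183 bp, lay under no peak in any list, and neither did the printed DR5 at +32473 bp. A weak 230 bp region at +36197 bp, within 1 kb of another start of RARA, occurred in the ATRA+Corin list alone (−log10 q 1.43). Upstream, a region covered the start of CDC6, a DNA replication gene, at −21301 bp from that of RARA in all lists.

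**Figure D3:**
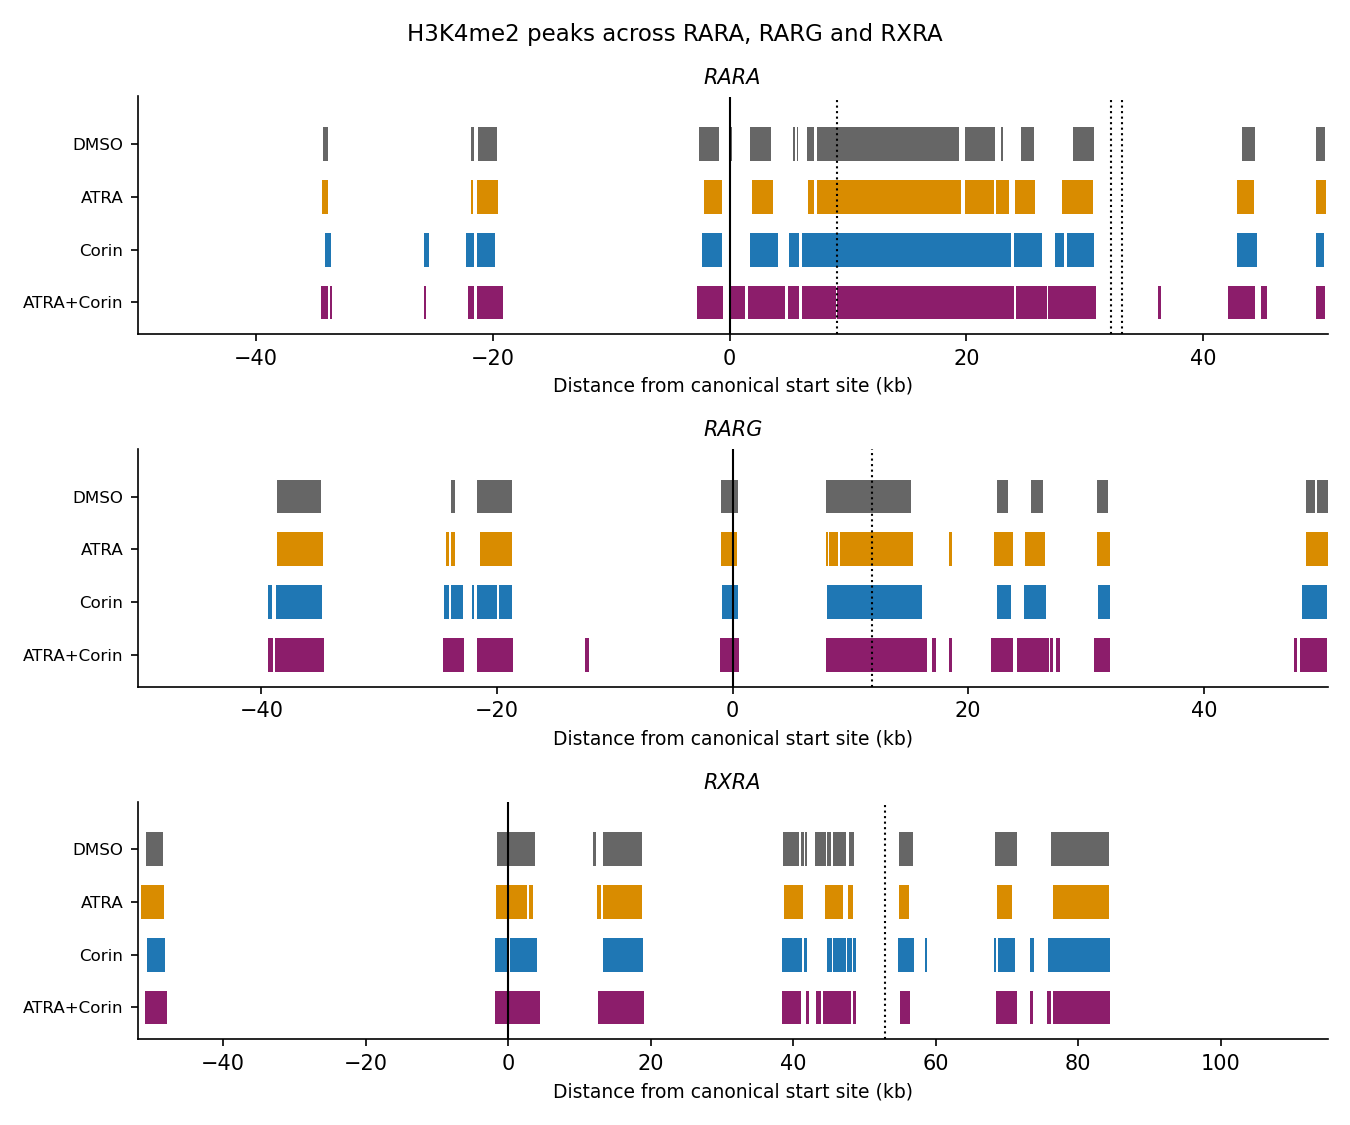
Peaks (bars) across RARA, RARG and RXRA by distance from the canonical start site in kb (solid line), with 1 row per peak list; dotted lines mark alternative start sites with GENCODE basic transcripts. The broad peak over the RARA start site at +9101 bp runs further downstream in the Corin and ATRA+Corin lists. In the DMSO and ATRA lists a separate peak covers much of that stretch. The 2 RARA start sites at +32208 and +33183 bp have no peak.

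RARG (ENSG00000172819.17, chr12:53210567-53232980, minus strand) encodes the third retinoic acid receptor, best known from skin and from blood stem cells. Its canonical start was the only one of the 6 that lay under a peak in every list. Its widths were 1434, 1361, 1390 and 1610 bp in the DMSO, ATRA, Corin and ATRA+Corin lists, with −log10 q of 34.9, 52.3, 19.6 and 19.6. The covered sequence within 5 kb of the start differed from DMSO by −73 bp in ATRA, −44 bp in Corin and +176 bp in ATRA+Corin, so this start kept nearly the same extent throughout.

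As at RARA, the strongest peak inside RARG spanned an internal start, RARG-204, at +11796 bp. The peak there was 7227 bp wide in the DMSO list, 6197 bp in ATRA, 8015 bp in Corin and 8550 bp in ATRA+Corin. Its summit held 245, 304, 164 and 204 fragments, with fold enrichments of 54.2, 69.2, 35.1 and 29.8. The summit lay at +10517 bp from the canonical start in DMSO, +10560 bp in ATRA and +13354 bp in Corin, so these counts are not from 1 place. This peak was the strongest of the RARG interval in the DMSO, ATRA and Corin lists. In the ATRA+Corin list the strongest was a peak at −36.3 kb, over the start of ESPL1, the cell division protease separase. Of the 8 RARG regions that were missing from at least 1 list, 5 occurred in the ATRA+Corin list alone, with −log10 q from 2.05 to 3.44. Of these 8, only a 333 bp region at +18.3 kb within RARG reached −log10 q 5, with 8.35 in ATRA and 2.72 in ATRA+Corin. A 355 bp region at +16922 bp, within 1 kb of the starts of 2 RARG transcripts, was among those of the ATRA+Corin list alone (−log10 q 2.72). Other start regions in this interval belonged to ITGB7, an integrin of leukocytes, and to MFSD5, CSAD and ZNF740.

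RARB (ENSG00000077092.20, chr3:24687887-25597932, plus strand) encodes the receptor whose promoter answers to retinoic acid. In the DMSO, ATRA and Corin lists its 910 kb held 1 region, at the canonical start at 25428263. The DMSO peak ran from −814 to +165 bp and the Corin peak from −912 to +304 bp. The ATRA peak ran from −893 to +2012 bp, followed by a weak peak from +2461 to +2911 bp with −log10 q 0.842. In the ATRA+Corin list 2 peaks ran from −1760 to −171 bp and from +34 to +2697 bp. The upstream edges of the DMSO, ATRA and Corin peaks thus lay within 100 bp of each other, whereas the downstream edges of the ATRA and ATRA+Corin peaks lay over 1.5 kb beyond those of DMSO and Corin.

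In the 5 kb after the start, 166 bp were covered in the DMSO list, 2464 bp in ATRA, 305 bp in Corin and 2664 bp in ATRA+Corin. The ATRA value includes the weak 451 bp peak. Both lists of cells that received ATRA were high and both lists of cells without it were low. The ATRA list exceeded DMSO by 2298 bp, percentile 99.9 among the 12245 genes with a DMSO peak within 1 kb, where the median difference was 50 bp. The ATRA+Corin list exceeded DMSO by 2498 bp (percentile 98.1, median 386 bp), and the Corin list by 139 bp (percentile 33.7, median 306 bp). The 3 comparisons share the DMSO list. The summits before the start held 95, 81, 109 and 100 fragments in the DMSO, ATRA, Corin and ATRA+Corin lists, at −288, −423, −380 and −347 bp. Divided by each list's background relative to DMSO, these counts were 95, 79.7, 99.4 and 83.4. The peak after the start in the ATRA+Corin list had a summit of its own at +363 bp, with 70 fragments and −log10 q 24.5.

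The printed RARB DR5 lies at −53 to −37 bp. It was under the DMSO, ATRA and Corin peaks, and in the ATRA+Corin list it fell into the 204 bp gap between the 2 peaks. The start itself lies in the same gap. RARB and RXRB were 2 of 795 genes (3.98% of all) whose start lay under a DMSO, an ATRA and a Corin peak and under no ATRA+Corin peak.

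**Figure D4:**
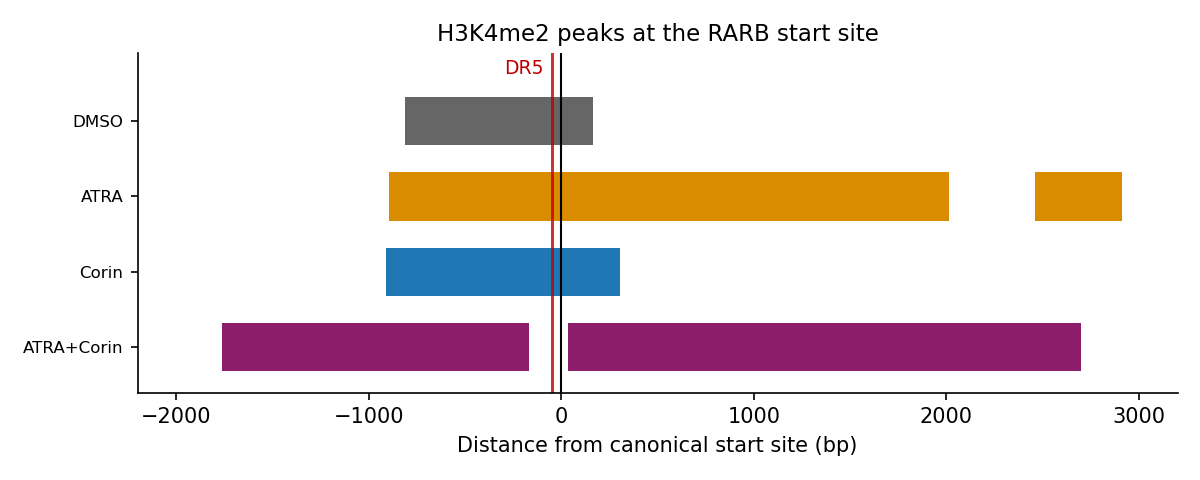
Peaks (bars) at the RARB canonical start site by distance in bp, with 1 row per peak list, the start as a black line and the DR5 at −53 to −37 bp as a red line. The ATRA and ATRA+Corin peaks reach beyond +2000 bp, the DMSO and Corin peaks end at +165 and +304 bp, and the ATRA+Corin list has a 204 bp gap over the start and the DR5.

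Away from the start, RARB had peaks in the ATRA+Corin list alone. A 178 bp peak lay at +32955 bp, 25 bp after the start of RARB-219, with 23 fragments and −log10 q 5.11, and a 627 bp peak at +123680 bp with 27 fragments and −log10 q 6.40. These were the 2 strongest of the 12 receptor regions found in that list alone. The far upstream starts of RARB, at −740376 and −598940 bp, lay under no peak in any list. The start group RARB-205 at +30047 bp had none either.

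RXRA (ENSG00000186350.12, chr9:134317098-134440585, plus strand) encodes the most widely expressed retinoid X receptor. Its canonical start lay in a gap between 2 strong peaks in every list. In the DMSO, ATRA, Corin and ATRA+Corin lists the gap measured 254, 243, 407 and 316 bp. The upstream peak was 1349, 1577, 1660 and 1607 bp wide with 206, 254, 139 and 212 summit fragments. The downstream peak was 3673, 2556, 3854 and 4281 bp wide, and in the ATRA list a separate 678 bp peak followed it. The printed 150 bases before RXRA-202 lay wholly within the gap in each list. RXRA was one of 1524 genes (7.63% of all) with a peak within 1 kb in every list and the start under none.

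Within the gene, RXRA had a row of strong regions between +12.5 and +84.5 kb. Those at +12.5, +38.4, +43.1, +54.7, +68.1 and +75.7 kb were present in all 4 lists. The region at +38.4 kb had the highest −log10 q of the ATRA and ATRA+Corin lists at RXRA, 300.8 and 174.0, with 286 and 221 summit fragments. The last region was 8823 bp long and had peaks of 8132, 7863, 8702 and 8090 bp. The start RXRA-201 at +45516 bp lay under an ATRA and an ATRA+Corin peak. In the DMSO and Corin lists it fell into gaps of 182 and 148 bp. None of the 4 RXRA regions missing from a list reached −log10 q 5. One of them, a 363 bp region at +58487 bp within 1 kb of another start of RXRA, occurred in the Corin list alone (−log10 q 1.24).

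The lower ATRA coverage of RXRA was spread over several places. The region at +43.1 kb began with a weak DMSO peak (−log10 q 0.877) of 1517 bp, whereas its first ATRA peak began at +44505 bp. The 5 kb after the start had 3673 bp under DMSO peaks and 3234 bp under ATRA peaks. The DMSO regions at +11.9 kb (−log10 q 2.06) and +41.5 kb (3.93) had no ATRA peak.

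RXRB (ENSG00000204231.11, chr6:33193588-33200665, minus strand) is a short gene whose start lies 202 bp from that of SLC39A7, a zinc transporter on the opposite strand, so the peaks of the 2 promoters cannot be separated. In the ATRA list 1 peak of 4631 bp ran across both starts, from −2129 to +2501 bp, with 234 summit fragments. In the other lists 2 peaks flanked the shared promoter. The downstream peak began at −14 bp in DMSO and −135 bp in Corin and so still covered the RXRB start. In the ATRA+Corin list it began at +268 bp, which left the start in a 566 bp gap. The ATRA list was the only one in which the start of SLC39A7 was covered.

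Several other regions of the RXRB interval differed between lists. The nearest to the RXRB start was a 182 bp region at −2537 bp in SLC39A7, found in the ATRA+Corin list alone with −log10 q 2.26. A region at −41.9 kb, outside any gene, was present in the Corin list (−log10 q 16.4, 42 fragments) and the ATRA+Corin list (28.0, 81 fragments) and in neither list without Corin. It had the highest −log10 q of all receptor regions that were missing from a list. A region in COL11A2 at +27.8 kb was in the DMSO (6.90), Corin (7.78) and ATRA+Corin (14.9) lists and not in ATRA. Another at +16.9 kb in COL11A2 was in the ATRA (4.64), Corin (4.19) and ATRA+Corin (10.9) lists and not in DMSO. RING1, a Polycomb gene, had its start covered in all 4 lists. The strongest peaks of the interval lay at the start of RING1 in the DMSO list, at −48.2 kb over the start of ENSG00000289975 in ATRA, and at −49.4 kb by the start of the noncoding gene HCG25 in Corin and ATRA+Corin.

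RXRG (ENSG00000143171.13, chr1:165400922-165445355, minus strand) encodes the retinoid X receptor best known from muscle and brain. It had no peak within 1 kb of its canonical start in any list. The nearest peak was at +4038 bp in the ATRA+Corin list, 370 bp wide with −log10 q 2.05. The start was not poor in CpG: its ratio was 0.718, percentile 48.5 of all genes. Of the 9684 genes with a ratio as low or lower, 39.9% had a DMSO peak within 1 kb.

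Inside RXRG the region at +19.6 kb, within 1 kb of the start RXRG-203, was present in all lists. Its peaks were 1182, 1287, 1546 and 2143 bp wide in the DMSO, ATRA, Corin and ATRA+Corin lists, with −log10 q of 21.9, 25.7, 38.3 and 56.6. Upstream, a region at −38.1 kb in LRRC52-AS1 was also present in all, with peaks of 664, 888, 1231 and 1141 bp and −log10 q of 16.4, 18.5, 28.0 and 60.04. Both regions were wider in the Corin and ATRA+Corin lists than in DMSO and ATRA. A region at +46.7 kb, beyond the 3′ end of the gene, was present in the Corin (−log10 q 12.6, 39 fragments) and ATRA+Corin (2.05, 34 fragments) lists. A region at −12.9 kb was present in the ATRA (3.88), Corin (6.21) and ATRA+Corin (4.79) lists.

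The regions gained and lost over the 6 genes were counted for each comparison, where gained means a peak in the first list and none in the second. ATRA against DMSO gave 3 gained regions of 44 (6.82%), compared with 16.4% of all merged regions. It gave 6 lost regions (13.6%), compared with 7.58%. No test was made of these shares. The counts were 1 gained and 1 lost with both lists limited to a −log10 q of at least 5, and 2 gained and 1 lost with peaks within 1 kb merged. No share over all merged regions is given at these 2 settings. The lost regions lay at RARA and RXRA (2 each) and at RXRB and RXRG (1 each).

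Corin against DMSO gave 9 gained regions of 50 (18.0%), compared with 22.4% of all regions, and 3 lost regions (6%), compared with 7.46%. ATRA+Corin against DMSO gave 20 gained regions of 61 (32.8%), compared with 34.9%, and 2 lost regions (3.28%), compared with 4.55%. Both comparisons lay near their background. The gains in the ATRA+Corin list were 7 at RARG, 4 at RXRB, 3 each at RARA and RXRG, 2 at RARB and 1 at RXRA. The 7 at RARG were weak, with −log10 q from 2.05 to 3.44, so none of them reached 5, whereas both at RARB (5.11 and 6.40) and 2 at RXRB (28.0 and 10.9) did. These 3 comparisons share the DMSO list.

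ATRA+Corin against ATRA gave 21 gained regions of 59 (35.6%), compared with 28.4%, and 0 lost regions, compared with 4.97%. ATRA+Corin against Corin gave 14 gained regions of 61 (22.95%), compared with 24%, and 2 lost regions (3.28%), compared with 6.59%. These comparisons share the ATRA+Corin list. RXRA gained no region against Corin and 2 against ATRA.

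Of the 63 regions, 35 (55.6%) were present in all 4 lists, compared with 51.2% of all merged regions. Another 12 (19.0%) occurred in the ATRA+Corin list alone, compared with 16.3%. Most of the variable regions were weak: 9 of the 28 that were missing from a list held a peak with −log10 q of 5 or more. These 9 are the regions of RARA at +4952 bp, RARB at +32955 and +123680 bp, RARG at +18.3 kb, RXRB at +27.8, +16.9 and −41.9 kb, and RXRG at +46.7 and −12.9 kb. The 12 regions of the ATRA+Corin list alone had a median −log10 q of 2.82. By place, 17 of the 63 regions lay within 1 kb of a receptor start, 10 at starts of other genes, 14 elsewhere in a receptor gene, 11 in other genes and 11 outside genes.

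The CpG content over 1 kb around the canonical starts, as the observed to expected ratio, differed widely among the receptors. It was 0.295 at RARA, 0.496 at RARG, 0.627 at RARB, 0.718 at RXRG, 0.767 at RXRB and 1.05 at RXRA (percentile 99.5). The median was 0.785 over genes with a DMSO peak within 1 kb and 0.394 over the others. RARA lay below the median of the genes without a peak, RARB and RARG lay between the medians, and the unmarked RXRG lay nearer the genes with a peak. Of the 3829 genes with a ratio no higher than that of RARA, 19.7% had a DMSO peak within 1 kb.

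Among the direct repeats, the DR5 near the RARB start was the only one found in the RefSeq promoters of the receptors. These were 13 promoters, each from 250 bases before to 50 after a start, and all 6 genes had at least 1. A DR5 was found in 0.0883% of all 35116 RefSeq promoters, a DR1 in 0.131% and a DR2 in 0.0399%. In the intervals there were 10 DR5, 45 DR2 and 5 DR1 matches, and 1, 4 and 0 of them lay wholly under a peak in at least 1 list. Of the 45 DR2, 33 had the same core, AGGTCAggAGTTCA, including all 4 under a peak. In the genome, 7.06% of DR5, 5.31% of DR2 and 5.46% of DR1 matches lay in a merged region. DR5 matches came to 6.78 per Mb, compared with 1.98 per Mb in the genome, DR2 to 30.5 compared with 37.0, and DR1 to 3.39 compared with 3.82. RARB and RXRB held 4 DR5 each, and 2 of the DR5 shared bases with a DR2. No receptor peak held a match in the 300 bp around its summit, where 1.45% to 1.72% of all peaks held a DR2, 0.101% to 0.116% a DR5 and 0.128% to 0.149% a DR1. A match describes the sequence and is not a binding site measured here.

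The pattern of each receptor start was set beside that of all genes on other chromosomes. The measure was the mean absolute difference in covered share over 20 bins of 500 bp in the 4 lists, 80 values in all. For RARB the nearest was ADGRG3, an adhesion receptor of granulocytes, at 5.88 percentage points, followed by SOCS3 at 9.69 and TMEM135 at 9.90, compared with a median of 24.5. For RARG the nearest were NRXN2 (1.31), SEMA3C (1.55) and CLDN1 (1.60), with a median of 18.2. RXRA was nearest to ROCK1 (4.89), IMP3 (5.13) and ENSG00000284461 (5.94), and RXRB to PGRMC2 (4.26), SMIM14 (4.60) and U2SURP (4.84), with medians of 40.5 and 35.4. RXRG was nearest to genes with almost no peak near the start, LGR4 at 0.025, GFRA2 at 0.135 and DAZL at 0.138. RARA had no close neighbour: its nearest, SMIM35, HSPA1A and CCDC194, differed by 19.9, 21.1 and 21.4, with a median of 44. The bins share libraries and depth, so these values only describe likeness.

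The other genes of the retinoid pathway were read from a list of 36. In each list 25 of the 36 had a peak within 1 kb of the start, and 19, 21, 16 and 16 had the start under a peak in the DMSO, ATRA, Corin and ATRA+Corin lists. ATRA against DMSO gave at least 1 gained region at 17 genes and at least 1 lost region at 11 (42% and 24.8% of all genes). Corin against DMSO gave gains at 24 and losses at 10 (54% and 25.8%). ATRA+Corin against DMSO gave gains at 28 and losses at 10 (67.8% and 20.3%). The pathway genes as a list thus had gains at 47.2%, 66.7% and 77.8%. Over the 33 of them with DMSO coverage, the median ratio of covered sequence to DMSO was 1.23, 1.30 and 1.54, compared with 1.09, 1.23 and 1.36 over all genes.

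By role, the median ratio in the ATRA+Corin list was 1.65 for 9 genes of ligand synthesis and breakdown, 1.77 for 5 of transport and uptake, 1.51 for 4 of 5 co-repressors, 1.43 for 6 co-activators and 1.54 for 9 of 11 other receptors that pair with retinoid X receptors. The co-repressor NRIP1 and the receptors NR1H4 and THRB had no DMSO coverage and so no ratio. The following 3 genes were chosen after their values were seen. DHRS3, which reduces retinal back to retinol, had 16.4, 24.1, 22.3 and 35.2 kb covered and 6, 9, 7 and 18 regions in the DMSO, ATRA, Corin and ATRA+Corin lists. NCOA3, a co-activator of nuclear receptors, had 6.96, 14.5, 11.2 and 26.6 kb and 5, 13, 11 and 29 regions. CYP26A1, which breaks down retinoic acid, kept 3 regions in each list, with 2.02, 2.95, 2.81 and 3.33 kb covered.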

How the data were processed

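H3K4me2 chromatin immunoprecipitation with paired-end sequencing was done in U-937 cells, with 2 H3K4me2 libraries and 1 input library for each of 4 treatments, 12 libraries in all, per the labels. Groups came from the sample titles. The submitters' processing notes name Trimmomatic, Bowtie2, Picard, MACS2 and the build hg38, without versions. The values are 4 peak lists, 1 per treatment. By its deposited name, each list is the optimal set of overlap-reproducible peaks as in ENCODE, so replicates were pooled, and no list per library was analysed here.

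Each peak has a position and 5 values deposited by the authors: a score, the fold enrichment over input as a linear ratio, the −log10 p, the −log10 q and the summit's offset in bp. The deposited score was not used. The authors' fold, −log10 p and −log10 q were read within a list only, and served to recover the fragments at each summit.

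In the lists, which use 23 chromosomes, 0 peaks ended past a chromosome of GRCh38. Genes, canonical start sites and transcripts came from GENCODE release 44, and positions are counted from 1. Overlapping or adjoining peaks were joined into merged regions across the lists with Python 3.11.15, numpy 2.4.6 and pandas 2.3.3 (scipy 1.17.1 for intervals). A region counted as present where a list had a peak in it. Covered sequence counts bases under peaks. Percentiles are descriptions, not tests.

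Summit fragments were solved from fold (pseudocount 1) and −log10 p (Poisson tail) with a tolerance of 0.001. This held for 98.9% of the DMSO peaks (729 not solved) and for 100% in the ATRA, Corin and ATRA+Corin lists. The factor that scales a list's fragment counts in this calculation was chosen to solve the most peaks in subsets of the list. These shares are therefore no independent check of the counts. On simulated data the method was tested with this factor known, so the choice of the factor was not tested. Depth per library is unknown.

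Direct repeats and CpG ratios (1000 bp around a start) were read from GRCh38, and promoters from RefSeq (GRCh38.p14).

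All 6 receptors are named, with every region near their start sites, every region that differed between lists and reached −log10 q 5, and the strongest region away from starts. The members and lists were chosen with earlier results of these data known. The alternatives tried were peaks past a −log10 q of 5, the strongest 65172 peaks of each list, peaks within 1 kb merged, windows of 10 and 100 kb, and a peak within 1 kb of a start site. Some marker and sequence results are not reported here.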

Additional observations from a re-analysis of the deposited data

How the results depend on the processing

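Covered sequence at the 6 genes moved by less than 1.5 times in 48 of 48 values under the alternatives tried for it, a −log10 q of at least 5 and lists cut to equal length. That margin is too wide to show whether smaller differences held, such as that between DMSO and ATRA at RXRA. Cutting to equal length keeps all 65172 DMSO peaks, so no value of the DMSO list alone could move under it. Counts of gained and lost regions did not hold in the same way: 17 of 50 stayed within 1.5 times and 33 moved, and of 12 counts of covered start sites 7 stayed and 5 moved. The cause was not tested beyond what each setting leaves out.

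With both lists limited to −log10 q of at least 5, gained and lost regions were 1 and 1 in ATRA against DMSO, 4 and 1 in Corin against DMSO, 5 and 0 in ATRA+Corin against DMSO, and 6 and 1 in ATRA+Corin against ATRA, with 4 gained in ATRA+Corin against Corin. The ATRA+Corin peaks then covered 1 receptor start. With each list limited to its strongest 65172 peaks, ATRA+Corin gained 6 and lost 4 against DMSO, gained 6 and lost 1 against ATRA and gained 2 against Corin, and again covered 1 start. With peaks within 1 kb merged, ATRA+Corin gained 12, 11 and 7 against DMSO, ATRA and Corin, the losses were 0 against DMSO and 1 against Corin, and ATRA and Corin lost 1 and 0 against DMSO. With a window of 10 kb, ATRA gained 1, Corin 2 and ATRA+Corin 9 against DMSO, ATRA+Corin gained 11 against ATRA and 9 against Corin, and it lost 1 against DMSO and 1 against Corin. With a window of 100 kb, ATRA and Corin gained 6 and 14 against DMSO, Corin lost 6, and ATRA+Corin lost 4 against DMSO and 3 against ATRA. Counting a peak within 1 kb, 5 starts were marked in the ATRA, Corin and ATRA+Corin lists. No share over all merged regions is given at these settings. Whether the gained and lost counts moved more at the receptors than in the genome cannot be read from them.

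No paired analysis was possible because the lists pool the libraries of a treatment, so the replicate numbers of the labels cannot be used. Leaving out a replicate was not possible for the same reason. Depth was recovered at summits only, and its part in weak peaks was not tested.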
